A study of Nothobranchius furzeri with 15 samples.

Results

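The late step of ageing in the killifish brain was examined here: brain at 14 weeks of age against brain at 8.5 weeks. The members are the 6 brain libraries whose labels give these ages, 3 at each age, of 15 libraries in the series. The fish are African turquoise killifish (Nothobranchius furzeri) of the strain GRZ-AD, a short-lived annual fish kept to study ageing in a vertebrate. The series also holds 3 brain libraries at 3.5 weeks, which shared the estimate of the spread, and 2 muscle libraries at each of the same 3 ages. All fish carry the same strain label, no treatment is given, and the labels do not say whether a library is 1 fish or a pool, nor the sex of the fish. The p-values therefore measure the spread between these libraries, which may be partly technical.

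Circular RNAs (circRNAs) form when the splicing machinery joins the end of an exon back to the start of the same or an earlier exon, which leaves a closed loop without the free ends that exonucleases attack. They are long-lived, and neural tissue is rich in them, many coming from genes of the synapse. In flies and mice circRNAs are known to accumulate in the ageing nervous system, so the comparison asks whether brain circRNAs still change between the adult and the old fish. A read across the back-splice junction counts the loop (a circular read), a read counted as linear at the same position stands for the host transcript, and the circular share is circular reads divided by circular plus linear reads.

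The 14-week libraries held 3963, 4400 and 2208 circular reads and 132001, 135698 and 87433 linear reads, and the 8.5-week libraries held 3477, 2095 and 3991 circular reads and 104026, 80405 and 113559 linear reads. Of the circRNAs in the tables, 1447 had a read in at least 1 of these 6 libraries and 214 had reads in all 6. Linear reads matched the tissue label. By symbol, 15 hosts matched neuron markers, among them snap25, a SNARE protein of synaptic vesicle fusion. In the 14-week libraries they summed to between 50930 and 57311 linear reads-per-million (of the linear reads counted in the library). The sum lay between 54959 and 58408 in the 8.5-week libraries, against between 135 and 713 linear reads-per-million in muscle. No microglia marker hosts a circRNA in these tables, so that cell type could not be read. In whole tissue, fewer cells of a type and less RNA per cell cannot be told apart.

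Total circular output of the brain did not separate the ages. Circular reads made up 2.91%, 3.14% and 2.46% of counted reads at 14 weeks, against 3.23%, 2.54% and 3.40% at 8.5 weeks. The ages overlapped, and the mean was 2.84% ± 0.345 for the 14-week libraries and 3.06% ± 0.455 for the 8.5-week libraries (SD, n = 3 each). The difference of -0.217 percentage points had p = 0.5 in a two-sided exact permutation test, where 3 against 3 libraries cannot go below 0.1. Thinned to 2095 circular reads, the depth of the shallowest library, a 14-week library was expected to show 638 ± 33.1 different circRNAs and an 8.5-week library 663 ± 36.8 (SD, n = 3 each, exact permutation p = 0.4). Both p-values were 0.5 after Benjamini-Hochberg adjustment over these 2 tests. The share of circular reads from circRNAs with both ends in annotated exons was 66.6% ± 2.76 at 14 weeks and 69.3% ± 2.86 at 8.5 weeks. The 10 best-read circRNAs took 14.9% ± 1.01 of circular reads at 14 weeks and 14.6% ± 1.48 at 8.5 weeks.

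**Figure D1:**
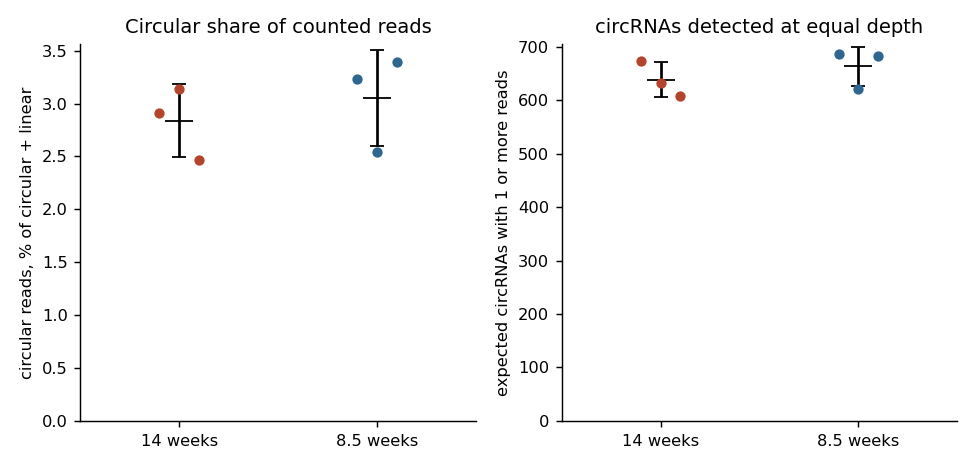
Circular share of counted reads (left, percent) and the expected number of circRNAs with a read after thinning to 2095 circular reads (right), for brain at 14 weeks and at 8.5 weeks. Each point is a library, and the cross and bar are the mean and SD of 3 libraries; the ages overlap in both panels, with means of 2.84% and 3.06% in the left panel.

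None of the most abundant loops of the brain passed the test between the ages. bace1 makes beta-secretase, the enzyme that starts the release of amyloid beta from its precursor. Its circRNA, on chromosome 7 from 4261005 to 4288732 (coordinates as deposited; the genome build is not given in the sources used here), had 106, 79 and 32 reads at 14 weeks, against 58, 61 and 54 at 8.5 weeks. In CPM (circular reads-per-million of effective linear reads, the unit of all circular levels here) that was 572 ± 219 at 14 weeks and 608 ± 146 at 8.5 weeks, and the ages overlapped. klc1, a light chain of the axonal transport motor kinesin, had a circRNA at 545 ± 129 CPM at 14 weeks and 495 ± 121 CPM at 8.5 weeks. For oxr1, a gene that protects neurons from oxidative damage in mice, the values were 487 ± 51.5 CPM at 14 weeks and 429 ± 79.9 CPM at 8.5 weeks. The best-read loop of all, from the host LOC107387794, had 82, 86 and 69 reads at 14 weeks, against 76, 53 and 85 at 8.5 weeks. Loops outnumbered linear reads at that position, with a circular share of 83.1% ± 3.35 at 14 weeks and 84.2% ± 6.63 at 8.5 weeks.

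The remaining 6 of the 10 best-read circRNAs came from LOC107395747, eif3l (part of the eIF3 complex that starts translation), LOC107390307, LOC107376304, nsun4 (a methyltransferase of mitochondrial ribosomal RNA) and LOC107376911. Their log2 changes, 14 over 8.5 weeks, lay between -0.57 for LOC107390307 and 0.07 for nsun4, and none of the 10 passed the test (adjusted p = 0.994 for each, edgeR's quasi-likelihood test). LOC107395747 had 92 reads in 8.5-week library 3, against between 31 and 53 in each of the other 5 libraries. Of the 10 highest circRNAs by mean CPM at 14 weeks, 9 were also among the 10 highest at 8.5 weeks. The 95% intervals of the 10 folds together reached from 0.415 to 1.77.

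**Figure D2:**
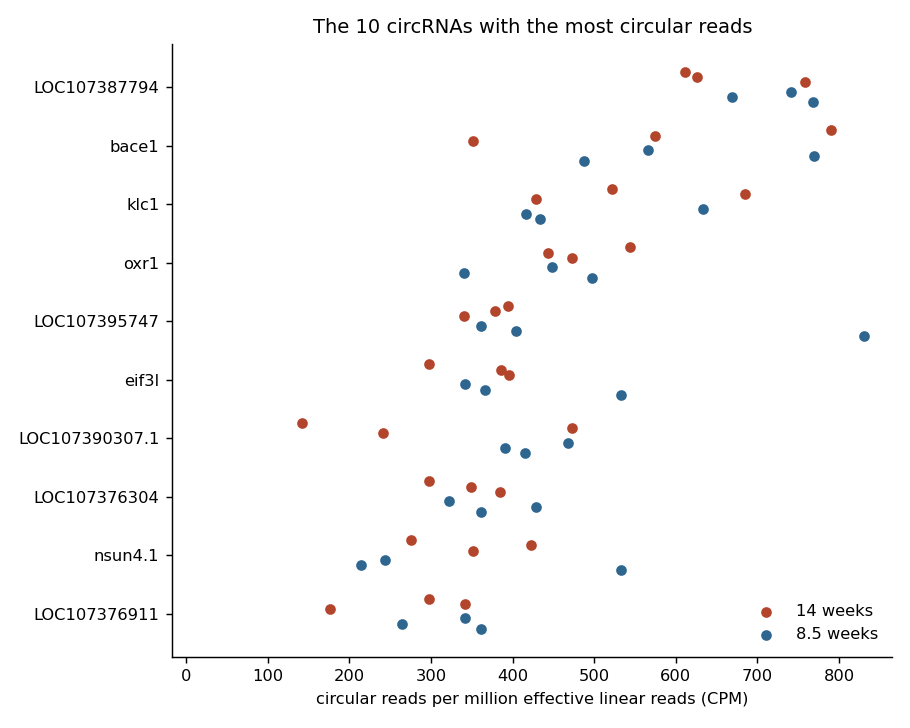
Circular reads-per-million of effective linear reads (CPM) for the 10 circRNAs with the most circular reads over the 6 brain libraries, each point a library, 14 weeks above 8.5 weeks in each row. The ages overlap in every row; the single point at the far right of LOC107395747 is the 8.5-week library with 92 reads.

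Across all 639 circRNAs with 10 or more reads over the 9 brain libraries, none was called at an adjusted p under 0.05 (0.0% called). The smallest adjusted p of edgeR's quasi-likelihood test was 0.973, and DESeq2 also called none. At an unadjusted p under 0.05 edgeR listed 31 circRNAs (4.85%), of which 13 were higher (2.03%) and 18 lower (2.82%) at 14 weeks, and DESeq2 listed 15. The circular CPM of the 3 libraries at 14 weeks lay wholly above the 3 at 8.5 weeks for 29 circRNAs and wholly below for 35, together 10% of those tested. The median log2 change was -0.19, with 265 circRNAs above and 374 below 0. That median depends on the scaling: with library sizes from the circular counts themselves it was -0.07, with 302 above and 336 below 0. It also depends on single libraries, from -0.33 without 14-week library 2 to 0.0 without 8.5-week library 3, and was -0.06 without 8.5-week library 1 and -0.08 without 14-week library 3. Precision set what could be seen. In the 460 circRNAs with at least 10 and under 30 reads over the 9 libraries, the 95% interval reached 7.66-fold to either side of the estimate at the median standard error, and in the 39 circRNAs with 100 or more reads 1.88-fold.

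**Figure D3:**
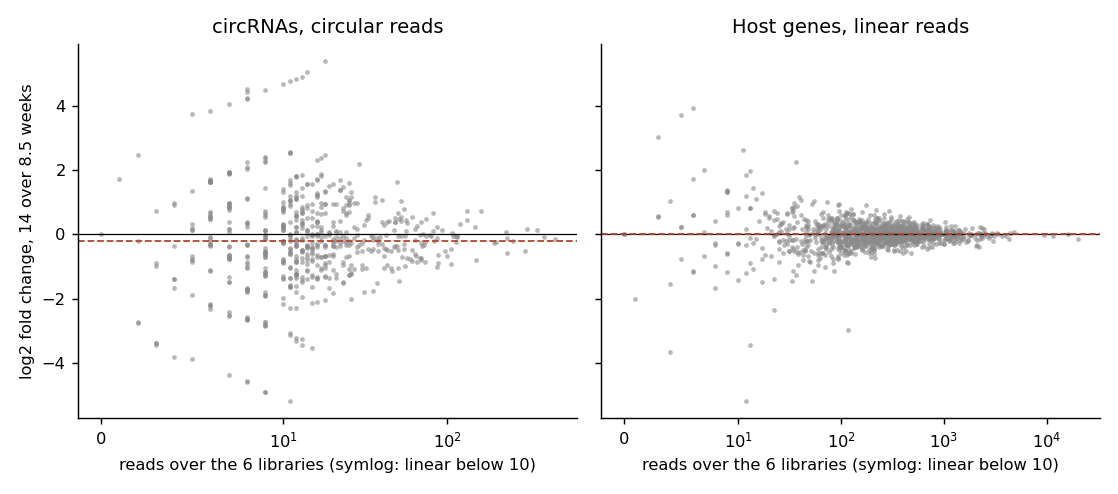
Log2 fold change of 14 over 8.5 weeks against the reads of a feature over the 6 libraries (linear below 10, logarithmic above), for 639 circRNAs (left) and 1232 host genes by linear reads (right). Each point is a feature and the dashed line is the median, at -0.19 on the left and at 0 to 2 decimals on the right; the scatter narrows as reads increase.

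Among the loops higher at 14 weeks, most of those with the smallest p were read at 14 weeks and not at 8.5 weeks. A loop needed 10 or more reads over the 9 brain libraries to be tested, so it could enter through the reads of a single age. The circRNA of LOC107376203, on chromosome 6 from 60407476 to 60417762, had 10, 6 and 2 reads at 14 weeks and 0 in all 3 libraries at 8.5 weeks. Set against the limit that a count of 0 allows (3 counts over the group), it was 4.84-fold higher at 14 weeks. That fold takes the 14-week reads as exact, so it is not a lower bound. The adjusted p was 0.973 in edgeR's quasi-likelihood test. Linear reads of LOC107376203 were 16, 22 and 10 at 14 weeks, against 17, 12 and 14 at 8.5 weeks, and overlapped (log2 change -0.16, adjusted p = 0.998). Its circular share was thus 25.5% ± 11.5 at 14 weeks, with no circular read at 8.5 weeks (adjusted p = 0.691, edgeR).

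cdk12 encodes a kinase that phosphorylates RNA polymerase II and keeps long genes transcribed. Its circRNA, on chromosome 3 from 12141042 to 12145526, had 8, 4 and 2 reads at 14 weeks and 0 in each library at 8.5 weeks. Against the same limit it was 3.76-fold higher (edgeR adjusted p = 0.973). Linear cdk12 reads were 8, 3 and 4 at 14 weeks, against 2, 3 and 5 at 8.5 weeks, and overlapped. The circRNA of odf2a, a gene of the centriole appendages, had 6, 2 and 3 reads at 14 weeks and 0 at 8.5 weeks, 2.96-fold higher against that limit. For the loops of these 3 hosts every 14-week library had circular reads and no 8.5-week library did. That pattern was found for 12 circRNAs, and the reverse for 10.

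acox3, a peroxisomal oxidase of branched fatty acids, differed in kind: 12 of its 13 circular reads at 14 weeks were in library 2, with 0 in library 1, and 8.5 weeks had none. The fifth in order of p was a circRNA with no annotated host on scaffold scf17836, from 1642 to 3211, with 17, 13 and 9 reads at 14 weeks, against 8, 1 and 1 at 8.5 weeks (107 ± 17.4 CPM against 33.2 ± 38.8 CPM, edgeR adjusted p = 0.973).

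In the other direction, 4 of the 5 loops with the smallest p had no read at 14 weeks. igsf9b, a cell adhesion protein of inhibitory synapses, had a circRNA on chromosome 7 from 33856799 to 33859804 with 0 reads in each library at 14 weeks, against 1, 1 and 6 at 8.5 weeks. Against the limit of 3 counts for a 0 it was 3.31-fold lower, which is not a bound either. xkr7, of the Xk-related family of membrane proteins, had 0 reads at 14 weeks, against 3, 6 and 0 at 8.5 weeks. LOC107379790 had 0 reads at 14 weeks, against 2, 6 and 1, and a circRNA with no annotated host on chromosome 3 from 13151687 to 13156920 had 0 reads at 14 weeks, against 1, 7 and 3. Each of these 4 had an adjusted p of 0.973 in edgeR's quasi-likelihood test.

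**Figure D4:**
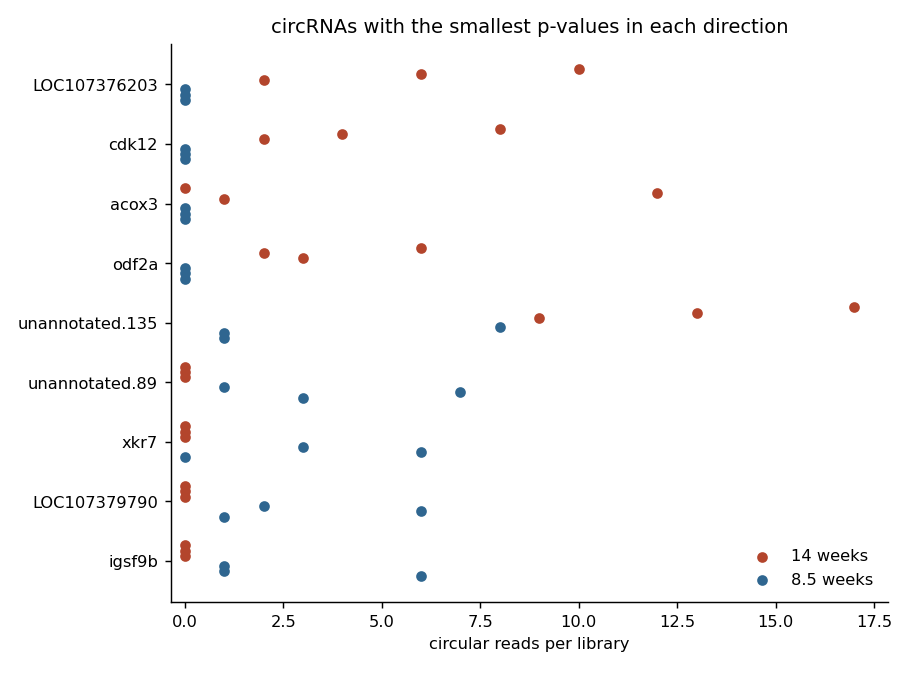
Circular reads per library for circRNAs with the smallest p-values of 14 against 8.5 weeks, 5 higher (upper rows) and 4 lower (lower rows) at 14 weeks, each point a library, 14 weeks above 8.5 weeks in each row. Most rows rest on fewer than 20 reads and have 0 reads in all 3 libraries of an age; none passed the test.

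Counted over all loops, 231 circRNAs had reads at 14 weeks only and 240 at 8.5 weeks only, while 976 had reads at both ages. With 5 or more reads at one age and 0 at the other there were 56 at 14 weeks and 33 at 8.5 weeks. Circular reads over an age summed to more at 14 weeks, so the 2 counts are not at equal depth. Reads in all 3 libraries of one age and in none of the other were found for 12 circRNAs at 14 weeks and 10 at 8.5 weeks. A loop of klhl21, an adaptor of a cullin ubiquitin ligase, shows how a single library can give 5 or more reads against 0: its 8 reads were all in 8.5-week library 3.

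Circular share per circRNA, which sets each loop against its own host, called none of 639 (0.0% called). At an unadjusted p under 0.05 the share test in edgeR listed 35 (5.48%), with 14 higher (2.19%) and 21 lower (3.29%) at 14 weeks, and a beta-binomial test listed 58 and called none. Shares did not overlap between the ages for 24 circRNAs above and 39 below, 9.86% of those tested. The ratio of circular to linear reads had a median log2 change of -0.13. nedd4, a ubiquitin ligase of membrane proteins, had more circular and fewer linear reads at 14 weeks. Its loop had 0, 2 and 6 reads at 14 weeks and 0 in each library at 8.5 weeks (share test, adjusted p = 0.691, edgeR). Its linear reads were 6, 10 and 10 at 14 weeks, against 16, 9 and 19 at 8.5 weeks (75.8 ± 32.7 linear CPM against 147 ± 30.03). The linear CPM of nedd4 did not overlap between the ages, and its log2 change of -1.02 ± 0.38 (SE) had an adjusted p of 0.998 (edgeR).

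myh14, a non-muscle myosin heavy chain, had a loop with 2, 8 and 2 reads at 14 weeks and 0 at 8.5 weeks (share test, edgeR adjusted p = 0.691). A loop of LOC107392897 had 6, 1 and 2 reads at 14 weeks and 0 at 8.5 weeks, with the same adjusted p. The loop of si:ch211-126j24.1 had 0 reads at 14 weeks, against 0, 2 and 6 at 8.5 weeks. All 4 loops rest on under 15 reads.

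A pair of loops of syn3, the synaptic vesicle protein synapsin 3, differed in opposite directions; they were chosen after their values were seen. Both start at 27128700 on chromosome 2. The shorter, which ends at 27191623, had 0, 1 and 0 reads at 14 weeks, against 3, 3 and 5 at 8.5 weeks, and the longer, which ends at 27220260, had 6, 7 and 2 reads at 14 weeks, against 2, 0 and 0. Neither overlapped between the ages in CPM. The share test gave a log2 change of -2.94 for the shorter and 2.71 for the longer, each with an adjusted p of 0.823 in edgeR. These sizes depend on single libraries: the shorter loop was at -4.62 without 14-week library 2 and the longer at 5.23 without 8.5-week library 1. The summed linear reads of syn3 overlapped between the ages. Of 67 hosts with 2 or more circRNAs tested, syn3 was the only one with a loop in each direction at an unadjusted share p under 0.05, and in 30 all loops pointed one way.

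The authors' deposited table for 14 against 8.5 weeks in brain gives p-values for 296 circRNAs, of which 18 were under 0.05. None was under 0.05 once adjusted over that table, where the smallest adjusted value was 0.649. Its smallest p, 0.00751 in the authors' deposited table, belonged to grin2a, the GluN2A subunit of the NMDA glutamate receptor. That loop, on chromosome 6 from 40842791 to 40844755, had 3, 1 and 0 reads at 14 weeks, against 5, 3 and 6 at 8.5 weeks, while linear reads at the position were 42, 41 and 19 at 14 weeks, against 29, 20 and 25 at 8.5 weeks. Its circular share was 3.02% ± 3.38 at 14 weeks and 15.7% ± 3.27 at 8.5 weeks, without overlap (adjusted p = 0.839, edgeR).

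The next 4 of the authors' deposited table were LOC107373468 (a 1-acyl-sn-glycerol-3-phosphate acyltransferase by its deposited name), taok3 (a stress-response kinase), adgrv1 (the giant adhesion receptor of the hair-cell stereocilia and photoreceptors) and gulp1 (an adaptor for the engulfment of dying cells). All 5 loops had a lower mean share at 14 weeks, and in all 5 the 3 shares at 14 weeks lay below those at 8.5 weeks. adgrv1 stood at 14.8 ± 14.9 CPM at 14 weeks and 68.1 ± 8.57 CPM at 8.5 weeks. gulp1 stood at 44.2% ± 9.48 circular at 14 weeks and 59.95% ± 1.91 at 8.5 weeks. The 5 loops were chosen by the smallest p of a test of the same reads, so these values are a description. Another loop of taok3, outside these 5, had more reads at 14 weeks: 3, 9 and 2, against 0, 0 and 2 at 8.5 weeks.

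Linear reads of the host genes were far more precise and still showed no change that passed the test. Of 1232 hosts, 0.0% were called by edgeR's quasi-likelihood test (smallest adjusted p = 0.998) and none by DESeq2. At an unadjusted p under 0.05 there were 48 (3.9%) by edgeR, 21 higher (1.7%) and 27 lower (2.19%) at 14 weeks, and 21 by DESeq2. The median log2 change was 0 to 2 decimals, with 613 hosts above and 619 below 0, against 741 above and 489 below with linear totals in place of TMM factors, and the 95% interval of the median host reached 1.43-fold to either side. All 479 hosts with 300 or more linear reads over the 6 libraries had a fitted fold under 1.5 in either direction. Linear CPM did not overlap between the ages for 53 hosts above and 64 below, 9.5% of those tested.

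ctif, a translation factor of the nuclear cap-binding complex, had the smallest p. It had 8, 13 and 10 linear reads at 14 weeks, against 2, 2 and 1 at 8.5 weeks, a log2 change of 2.26 ± 0.64 (SE, edgeR adjusted p = 0.998). si:zfos-2326c3.2 had 342 ± 51.2 linear CPM at 14 weeks and 178 ± 41.7 at 8.5 weeks. ccdc102a had 191 ± 29.9 linear CPM at 14 weeks and 101 ± 53.4 at 8.5 weeks, and wu:fc21g02 and LOC107383155 completed the 5 with the smallest p among those higher. The 3 libraries at 14 weeks lay above the 3 at 8.5 weeks in each of these 5, against 9.5% of all hosts without overlap in either direction. These 5 were chosen by the smallest p of a test of the same reads, so this is a description. arntl, the clock transcription factor also called BMAL1 and chosen after its values were seen, had 34, 45 and 28 linear reads at 14 weeks, against 17, 19 and 17 at 8.5 weeks, and did not overlap in CPM (log2 change 0.69 ± 0.28, SE, edgeR adjusted p = 0.998).

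Among the 5 lower hosts, nhsl1a had 43.0 ± 20.9 linear CPM at 14 weeks and 122 ± 28.9 at 8.5 weeks, and LOC107388255 had 245 ± 41.0 at 14 weeks and 410 ± 52.1 at 8.5 weeks. kiaa1324 had 1, 0 and 0 linear reads at 14 weeks, against 6, 3 and 3 at 8.5 weeks. LOC107396203 had 0 linear reads in all 3 libraries at 14 weeks, against 8, 2 and 2 at 8.5 weeks.

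atp2a1 encodes SERCA1, the calcium pump of fast skeletal muscle. It had 6, 3 and 6 linear reads at 14 weeks, against 44, 8 and 49 at 8.5 weeks, or 44.2 ± 22.05 linear CPM in 14-week brain and 324 ± 193 in 8.5-week brain (SD over 3 libraries each). The ages did not overlap, and the log2 change was -2.98 ± 0.93 (SE, edgeR adjusted p = 0.998). The 3.5-week libraries that share the fit bear on this test. Libraries 1, 2 and 3 of 3.5 weeks had 71, 231 and 678 reads of atp2a1. With only the 6 libraries of 14 and 8.5 weeks in the fit, the log2 change was -2.96 and adjusted p = 0.00417, which made atp2a1 the only host called. It was also called without 3.5-week library 1 (adjusted p = 0.0333) and without libraries 2 and 3 of 3.5 weeks (adjusted p = 0.00301). The last of these fits was chosen after seeing the data. No call was made without 3.5-week library 2 (edgeR adjusted p = 0.999) or without 3.5-week library 3 (edgeR adjusted p = 0.633). Nor was atp2a1 called with the replicate number as a block (edgeR adjusted p = 0.361) or by DESeq2. Without any single library of 14 or 8.5 weeks the edgeR adjusted p was 0.911 or more.

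The 10 hosts that carry skeletal muscle markers summed to 2455, 1761 and 1761 linear reads-per-million at 14 weeks, against 2624, 1505 and 2175 at 8.5 weeks, and the ages overlapped. The sum holds atp2a1 itself and much of it came from flnc and ryr1b. Linear flnc had 97, 91 and 65 reads at 14 weeks, against 48, 45 and 85, and ryr1b 72, 96 and 49, against 58, 43 and 44. Linear ttn.2 had 90, 24 and 15, against 78, 14 and 36. Linear neb had 30, 11 and 4 reads at 14 weeks, against 24, 2 and 8 at 8.5 weeks, and ttn.1 15, 7 and 5, against 12, 2 and 8. Reads of flnc, ryr1b, ttn.2, neb and ttn.1 each overlapped between the ages. How far the sum reflects muscle RNA in these libraries was not tested. At 3.5 weeks the sum was 3470, 22506 and 16021, and in muscle libraries it lay between 271953 and 310449. Whether muscle RNA in the dissected brain has a part in the atp2a1 values was not tested.

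**Figure D5:**
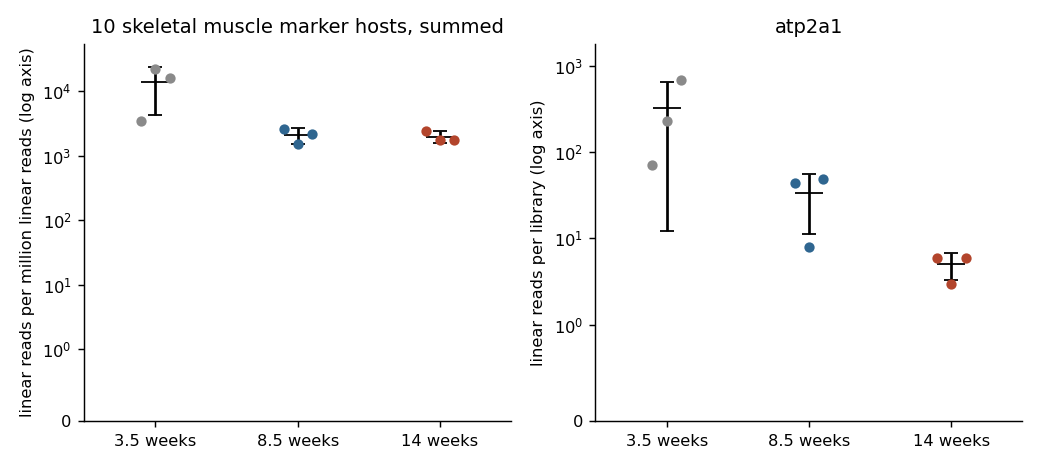
Summed linear reads-per-million of 10 skeletal muscle marker hosts (left) and linear reads of atp2a1 (right) in the 9 brain libraries by age, on axes that are logarithmic above 1. Points are libraries, with mean and SD of 3; the marker sum overlaps between 14 and 8.5 weeks, while atp2a1 is at 3 to 6 reads at 14 weeks, below all other libraries.

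Summing all loops of a host also gave no call. Of 552 hosts, 0.0% were called for circular reads and 0.0% for circular share (edgeR), with 29 (5.25%) and 28 (5.07%) at an unadjusted p under 0.05. Without 8.5-week library 3 the list by circular reads held 15. Circular CPM per host did not overlap between the ages for 22 hosts above and 32 below (9.78%). ogfrl1 had 19, 7 and 4 circular reads at 14 weeks, against 3, 1 and 1 at 8.5 weeks, without overlap in CPM. LOC107374829 had 0 circular reads at 14 weeks, against 9, 1 and 2 at 8.5 weeks. sbf2, a regulator of endosomal phosphoinositides whose loss causes a neuropathy in humans, had 1, 0 and 0 circular reads at 14 weeks, against 9, 1 and 7 at 8.5 weeks. smarca2, an ATPase of the SWI/SNF chromatin remodelling complex, had 0 circular reads at 14 weeks, against 6, 0 and 4. Linear reads of smarca2 were at 2749 ± 270.2 CPM at 14 weeks and 2765 ± 618 at 8.5 weeks.

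Synaptic genes host many brain loops, and no member of the synaptic lists passed the test in either direction. Of 41 circRNAs tested from postsynaptic receptors and scaffolds, 11 had a log2 change above 0 and 30 below, with a median of -0.37 against -0.19 over all 639. Their 40 hosts had 14 above and 26 below 0 in linear reads, with a median of -0.05 against 0 to 2 decimals over all hosts. dlg1, the scaffold SAP97, chosen after its values were seen, had 371, 352 and 330 linear reads at 14 weeks, against 407, 299 and 442 at 8.5 weeks, and its CPM did not overlap (2984 ± 565 against 3912 ± 120.1 CPM, edgeR adjusted p = 0.998).

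From the active zone and synaptic vesicle list 9 circRNAs were tested, 5 above and 4 below 0, and the loop of syt3, a synaptotagmin calcium sensor, had 51.4 ± 14.3 CPM at 14 weeks and 56.2 ± 44.5 CPM at 8.5 weeks. Linear snap25 had a log2 change of -0.15 ± 0.12 (SE, edgeR adjusted p = 0.998). Of 18 circRNAs from ion channels 8 were above and 10 below 0, and the loop of the potassium channel gene kcnc3b had 93.3 ± 43.6 CPM at 14 weeks and 70.03 ± 40.4 CPM at 8.5 weeks. In 39 circRNAs from axon guidance and adhesion genes 19 were above and 20 below 0. A loop of ptprz1b, a receptor phosphatase of radial glia, had 224 ± 13.4 CPM at 14 weeks and 162 ± 70.7 CPM at 8.5 weeks.

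Glia were covered by few hosts, 2 from the oligodendrocyte list and 3 from the astrocyte and radial glia list, whose 2 and 4 tested circRNAs had 1 and 2 above 0. enpp6, a choline phosphodiesterase of newly forming oligodendrocytes in mice, had 94, 129 and 74 linear reads at 14 weeks, against 115, 86 and 112 at 8.5 weeks. That was 817 ± 119 linear CPM at 14 weeks and 1073 ± 55.9 at 8.5 weeks, without overlap (log2 change -0.39 ± 0.16, SE, edgeR adjusted p = 0.998). Its main loop had 262 ± 18.2 CPM at 14 weeks and 317 ± 144 CPM at 8.5 weeks, and overlapped. The other oligodendrocyte host, ugt8, had a linear log2 change above 0, so the 2 hosts of that list went opposite ways. In the growth signalling list, ntrk3, the receptor of neurotrophin 3, had 375, 416 and 222 linear reads at 14 weeks, against 342, 288 and 399 at 8.5 weeks, with no overlap in CPM (log2 change -0.35 ± 0.14, SE, edgeR adjusted p = 0.998).

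The lists of RNA handling and cell upkeep had no call either. Of 7 circRNAs from RNA binding and splicing genes 2 were above and 5 below 0, with a median of -0.96 on few loops. The loop of rbm14b, a paraspeckle protein, had 6, 23 and 4 reads at 14 weeks, against 19, 13 and 21 at 8.5 weeks (edgeR adjusted p = 0.990). Of 9 circRNAs from ubiquitin and autophagy genes 6 were above and 3 below 0. ubr3, an E3 ligase of the N-degron family, had a loop at 295 ± 11.4 CPM at 14 weeks and 176 ± 66.5 CPM at 8.5 weeks, without overlap (edgeR adjusted p = 0.994). Linear hspa8, the constitutive Hsc70 chaperone, had a log2 change of 0.01 ± 0.15 (SE) and linear gapdhs, of glycolysis, 0.04 ± 0.14 (SE). Of 10 circRNAs from chromatin regulators 4 were above and 6 below 0, and the loop of jarid2, a partner of Polycomb complex PRC2, had 162 ± 109 CPM at 14 weeks and 98.6 ± 16.01 CPM at 8.5 weeks. The interferon and inflammation list had 5 circRNAs tested, 1 above and 4 below 0 in reads, and 3 above and 2 below in share. That list was matched by symbol and also holds il1rapl1, a synaptic adhesion gene. Its best-read loop, of traf7, an E3 ubiquitin ligase, had 50.2 ± 16.4 CPM at 14 weeks and 54.4 ± 4.02 CPM at 8.5 weeks.

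In the remaining lists no member passed the test either. Small GTPase regulators had 12 circRNAs tested, 3 above and 9 below 0 in reads, and 6 above and 6 below in share. Their best-read loop, of rasgrf2, a Ras exchange factor of neurons, had 109.9 ± 50.3 CPM at 14 weeks and 111 ± 42.8 CPM at 8.5 weeks, and overlapped. Cytoskeleton and motor genes had 19 tested, 10 above and 9 below 0, with the loop of klc1 as the best read. Linear dctn4, of the dynactin complex that links dynein to cargo, had 2447 ± 96.4 CPM at 14 weeks and 2794 ± 56.0 CPM at 8.5 weeks, without overlap (log2 change -0.19 ± 0.13, SE, edgeR adjusted p = 0.998). Mitochondria and energy genes had 8 circRNAs tested, 3 above and 5 below 0, and 4 of their 16 hosts were above 0 in linear reads. Over all hosts 613 of 1232 were above 0, and other lists leaned either way. Above 0 in linear reads were 5 of 6 chaperone, 29 of 50 axon guidance and adhesion and 19 of 33 cytoskeleton hosts. The same held for 18 of 31 small GTPase, 9 of 28 ion channel and 5 of 16 growth signalling hosts.

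Chaperone genes had 2 circRNAs tested, both below 0. The loop of hspa8b, an Hsc70 gene, had 7, 15 and 10 reads at 14 weeks, against 7, 1 and 23 at 8.5 weeks, and overlapped. Translation genes had 5 tested, 2 above and 3 below 0, and linear rps15, a ribosomal protein gene with the most linear reads of its list, had 16999 ± 988 CPM at 14 weeks and 17513 ± 2258 CPM at 8.5 weeks. The lamina and DNA repair list had 3 tested, 1 above and 2 below 0, and the loop of nup50, a nuclear pore protein, had 19, 22 and 19 reads at 14 weeks, against 31, 11 and 9 at 8.5 weeks. Its linear log2 change was -0.02 ± 0.16 (SE). The single circRNA tested from the cell cycle list, of cdc73, a subunit of the PAF1 complex, had 94.5 ± 36.4 CPM at 14 weeks and 120 ± 28.7 CPM at 8.5 weeks, and its linear log2 change was 0.01 ± 0.18 (SE).

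Among hosts known for circRNAs in mammals 5 circRNAs were tested, 2 above and 3 below 0. Their best-read loop, of camsap1a, a protein of microtubule minus ends, had 28, 23 and 9 reads at 14 weeks, against 17, 16 and 15 at 8.5 weeks. The muscle list, which also holds the non-muscle myosin gene myh14, had 3 tested, 1 above and 2 below 0. Its best-read loop, of flnc, the actin crosslinker filamin C, had 7, 18 and 15 reads at 14 weeks, against 20, 10 and 35 at 8.5 weeks, which overlapped in CPM. Growth signalling had 5 tested, 2 above and 3 below 0, and the endothelial and blood list 1, below 0. Of that last list, epb41l3 and epb41l4b are also in the cytoskeleton list. Linear usp54b, the host of the ubiquitin list with the most linear reads, had 1707 ± 338 CPM at 14 weeks and 1568 ± 323 CPM at 8.5 weeks.

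A loop of il1rapl1, a synaptic adhesion protein linked to intellectual disability in humans and chosen after its values were seen, had 5, 7 and 4 reads at 14 weeks, against 1, 1 and 0 at 8.5 weeks. Its circular share was 3.87% ± 0.591 at 14 weeks and 0.785% ± 0.697 at 8.5 weeks, without overlap (adjusted p = 0.838, edgeR). A second tested loop of il1rapl1 with the same start had 4, 3 and 0 reads at 14 weeks, against 0, 3 and 6 at 8.5 weeks.

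Weighted by circular reads, the geometric mean genomic span of a loop was 5299, 5026 and 5135 bases at 14 weeks, against 4589, 4909 and 4565 bases at 8.5 weeks. The ages did not overlap, while the 3.5-week libraries had 5245, 5046 and 4956 bases; no test was run on this measure, which was 1 of 9 library properties described. In the shortest quartile of circRNAs, those spanning at most 1999 bases, 55 of 161 had a log2 change above 0 and the median was -0.36. In the longest quartile 69 of 160 were above 0 and the median was -0.15. Quartiles 2 and 3 by span, which lie between these, had 70 of 159 and 71 of 159 above 0. Their medians were -0.089 and -0.075, so the median did not rise steadily with span. Over all circRNAs tested 265 of 639 were above 0 and the median was -0.19. Circular and linear changes at the same position had a Spearman correlation of 0.42 over the 131 circRNAs with 30 or more reads over the 6 libraries. Both come from the same libraries and circRNAs are not independent replicates.

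Muscle allowed the brain change to be set against that of a second tissue. Linear counts at 1 position, the host LOC107389481, lay between 7824 and 7897 in all 6 muscle libraries, and those at an unannotated position between 3605 and 3759 in all 9 brain libraries and between 3607 and 3823 in muscle. Whether a limit on counted depth has a part in the linear values was not tested. The change of circular reads from 8.5 to 14 weeks differed between brain and muscle for 0 of 896 circRNAs (0.0% called, edgeR), with 21 (2.34%) at an unadjusted p under 0.05. The standard errors worked out from that test had a median of 42.6 log2 units, too large to serve as a measure of precision. Many loops had no read in a muscle group. That fit could hardly call a difference, so the lack of calls does not show that the tissues changed alike. For linear reads 0 of 1242 hosts were called (0.0%), with 155 (12.5%) at an unadjusted p under 0.05, of which 23 (1.85%) had an interaction above 0 and 132 (10.6%) below 0 (edgeR). All hosts together leaned the same way, with 413 above and 829 below 0 and a median of -0.35. In the fit of brain alone 613 hosts were above and 619 below 0. Whether the muscle libraries or the scaling across tissues have a part in this lean was not tested. The smallest interaction p in linear reads belonged to LOC107390721, with 228, 233 and 130 linear reads in brain at 14 weeks and 171, 115 and 183 at 8.5 weeks. In muscle LOC107390721 had 4 and 6 linear reads at 14 weeks and 0 in both libraries at 8.5 weeks (edgeR interaction adjusted p = 0.218). ptprz1b and pcsk5 followed with the same adjusted p. For nedd4, the smallest p in circular reads, brain had 8 reads at 14 weeks and 0 at 8.5 weeks, and muscle had 4 at 14 weeks and 19 at 8.5 weeks (edgeR interaction adjusted p = 1).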

How the data were processed

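Per the labels' protocols, dissected brain was frozen, its RNA taken up in Trizol and depleted of ribosomal RNA, and stranded libraries were sequenced as paired ends. The authors deposited raw counts of circular and of linear reads per circRNA position, 1 column per library, and a table of p-values. STAR 2.5.2b was used, per the submitters' processing notes. Which program called circular junctions, on which build, and what counted as linear is not given in the sources used here.

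Members and gene lists were chosen with earlier results of these data known. Gene lists and marker sets match the start of a host symbol, so they can hold a gene of another function. The neuron markers hold grina in this way. Linear counts were summed per host over its circRNA positions, which can lie in the same exons. Of 1262 hosts 705 are named in the deposited table, 339 were named through RefSeq identifiers and 218 keep their ID. Circular counts were scaled by linear library sizes with TMM factors, since scaling by circular counts would remove a change of all loops together. edgeR 4.0.16 (quasi-likelihood test, R 4.3.3) was fitted to all 9 brain libraries with 10 or more reads per feature, contrast 14 minus 8.5 weeks. For shares, circular and linear counts were paired columns of a library. Adjusted p-values are Benjamini-Hochberg over all features of a fit, with a threshold of 0.05. DESeq2 1.42.0, a beta-binomial test, other scalings, filters and sample sets were alternatives, and scripts were tested on simulated data. Limits for a count of 0 are 3 counts over a group and cover counting error only. The standard errors were worked out from the log2 change and the F statistic of each edgeR test. The intervals are 1.96 of these to either side, a value of the normal distribution, so they are approximate. Folds set against such a limit take the reads of the other age as exact.

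Named were the 10 best-read circRNAs, the 5 smallest p per direction (3 for sums per host), the 5 smallest deposited p-values, the smallest interaction p-values, loops read at one age only, and from gene lists the best-read member of up to 3; others are said to have been chosen after their values were seen. Some named features are not reported here. No member of the 22 gene lists was called, and 0 circRNAs of the microglia list were in the tables.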

Additional observations from a re-analysis of the deposited data

How the results depend on the processing

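No circRNA was called for circular reads or circular share, alone or summed per host, under any alternative run, nor any feature in the brain and muscle comparison. Linear reads per host gave 1 call, atp2a1, with only the 6 libraries of 14 and 8.5 weeks, and 1 without libraries 2 and 3 of 3.5 weeks (chosen after seeing the data). Leaving out single libraries gave between 0 and 1 calls, the call without 3.5-week library 1. These are also the only calls among gene list members. Replicate numbers did not pair the libraries (same-number correlations from -0.0787 to 0.0658), and with the number as a block 0 were called, with 15 circRNAs at an unadjusted p under 0.05 against 31. The replicate block gave p = 0.75 for the total circular share and p = 0.5 for circRNAs detected (exact sign-flip tests). With 3 libraries an age such a test cannot reach 0.05, so it could not have shown a difference. Without 8.5-week library 3 the unadjusted list fell to 14 for circular reads and 17 for share, and with 30 or more reads to 7 and 6. Summed per host, the unadjusted lists of 29 for circular reads and 28 for share held 6 and 5 with 30 or more reads, 17 and 16 with 6 libraries, 16 by DESeq2 for circular reads, 51 by the beta-binomial test and 45 with no filter for share, and 15 for circular reads with the replicate block. For circular reads in brain against muscle the list of 21 held 9 with 30 or more reads and 34 with no filter.

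The share difference was below 0 in every alternative run, from -0.0286 without 14-week library 3 to -0.475 percentage points without 8.5-week library 2 with single libraries left out, at -0.400 without the 10 positions with the most linear reads and at -1.21 as the median share of circRNAs with 30 or more reads. Signs near 0 were not stable. The median log2 share change ran from -0.29 to 0.0505 with single libraries left out. The median of linear reads per host ran from -0.0074 to 0.015 with single libraries left out and was 0.0016 with DESeq2 size factors, 0.056 with linear totals, 0.0077 with 6 libraries, 0.0036 with the best-read position per host and 0.0082 without libraries 2 and 3 of 3.5 weeks. Log2 changes of circular reads turned positive when scaled by circular counts, to 0.011 for LOC107376304, 0.0019 for LOC107387794, 0.022 for bace1, 0.049 for camsap1a, 0.072 for nup50.1, 0.077 for rasgrf2.2 and 0.015 for traf7. With linear totals they did for camsap1a (0.0041), nup50.1 (0.0098) and rasgrf2.2 (0.015), and linear changes did for nup50 (0.038), rps15 (0.017) and smarca2 (0.048). The block turned hspa8b to 0.16 and linear smarca2 to 0.013, and the best-read position turned smarca2 to 0.027. With single libraries left out, log2 circular changes spanned 0 for LOC107376304 (-0.20 to 0.0051), bace1 (-0.37 to 0.17), camsap1a (-0.29 to 0.17), eif3l (-0.33 to 0.023), enpp6.2 (-0.51 to 0.14), hspa8b (-0.63 to 1.06), klc1 (-0.057 to 0.36), nsun4.1 (-0.15 to 0.60), nup50.1 (-0.41 to 0.64), rasgrf2.2 (-0.45 to 0.27), syt3 (-0.48 to 0.68) and traf7 (-0.32 to 0.11). Linear changes did for cdc73 (-0.13 to 0.10), cdk12 (-0.12 to 0.61), gapdhs (-0.084 to 0.20), hspa8 (-0.16 to 0.13), nup50 (-0.15 to 0.059), rps15 (-0.15 to 0.027), smarca2 (-0.18 to 0.12) and usp54b (-0.037 to 0.27). The cause of these changes was not tested. Few reads per loop limit the fits: at the median standard error the 95% interval of a circRNA reached 6.37-fold to either side.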
